A study of Mus musculus with 32 samples.

Results

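Long-term epidermal organoids split into 2 sides by their content of Krt10, the keratin that marks cells leaving the basal layer. Of 32 mouse libraries in the series, 6 came from late organoids grown with forskolin and Fgf1, and these were chosen by their measured Krt10. Replicates 1, 2 and 3 held less than 100 CPM of Krt10 (counts scaled to a library total of 1000000, spike-ins left out) and form the low-Krt10 side. Replicates 4, 5 and 6 held more and form the high-Krt10 side. Krt10 stood at 12.6, 2.42 and 26.2 CPM in low-Krt10 libraries (7, 1 and 82 counts), against 5911, 941 and 5285 CPM in high-Krt10 libraries. The values nearest the threshold were 26.2 CPM inside and 941 CPM outside, and Krt10 itself is no finding.

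The organoids, 3-dimensional clusters of keratinocytes, were raised from the skin of Bl/6 mice. Both sides carry the same labels: passages 23 to 30, up to 6 months of culture, collection 7 days after a passage, and a medium with forskolin, which raises cyclic AMP, and the growth factor Fgf1. The labels name no genotype or agent that separates them, and do not say how many animals or cultures the 6 libraries came from, so how far their spread is technical is unknown. Xist, the RNA of the inactive X of females, had 110, 0 and 0 CPM in low-Krt10 libraries and 66.4, 32.5 and 0 CPM in high-Krt10 libraries, while the Y-linked Eif2s3y had 0, 70.3 and 33.6 CPM in low-Krt10 libraries and 0, 0 and 39.0 CPM in high-Krt10 libraries (both named after their values were seen). The libraries thus fell into 2 kinds by these genes, replicates 1, 4 and 5 and replicates 2, 3 and 6, and each side held both kinds. The part of this difference in the results was not tested. A further 12 libraries of early organoids (passages 7 to 12, up to 3 months) grew with forskolin plus a TGF-beta inhibitor (4), with the inhibitor alone (2), with forskolin plus Fgf10 (4) or with forskolin plus Fgf1 (2), and played no part in the choice. Gene expression was read by CEL-seq2, which counts the 3′ ends of polyadenylated transcripts.

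The late libraries held 412582 to 3127190 counts on the low-Krt10 side and 646279 to 1050073 on the high-Krt10 side, with 10511 to 12528 and 10549 to 10998 genes detected. The deposited gene lists of the libraries fell into 11 identical sets, here called source tables, and the late libraries lie in 4 of them. Low replicates 1 and 2 shared a table, as did high replicates 4 and 5, while replicates 3 and 6 had their own. No table held both sides, so a difference between sides and one between tables cannot be told apart here. Low replicates 1 and 2 were alike across genes (Spearman correlation 0.871). High replicates correlated at 0.768 (4 and 5), 0.828 (4 and 6) and 0.873 (5 and 6). Low replicate 3 was closer to high replicates 5 and 6 than to the other low libraries. Its correlation was 0.712 and 0.668 with low replicates 1 and 2, and 0.688, 0.799 and 0.778 with high replicates 4, 5 and 6. For the gene lists below, the count or median without a library is given where leaving it out moves the main value by over 1.5 times.

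The epidermis renews itself from a basal layer of dividing keratinocytes that hold Krt5 and Krt14 and adhere to the basement membrane through integrins. Cells that detach switch to Krt1 and Krt10 in the spinous layer, then make loricrin, filaggrin-like proteins and small envelope proteins in the granular layer, and end as dead, crosslinked cornified cells sealed by ceramide lipids. Many of these late genes sit side by side in the epidermal differentiation complex. Cultured and wounded keratinocytes also make Krt6, Krt16 and Krt17, which healthy interfollicular epidermis holds at low levels.

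The sides were set by a measured value, so no gene was tested between them, and the differences below are descriptions. A gene was counted as lower or higher when the 3 low-Krt10 and the 3 high-Krt10 libraries did not overlap and the mean log2(CPM + 1) differed by at least 2, which is 4-fold, among genes with a mean of at least 10 CPM. With Krt10 left out, 247 of 7465 genes were lower in low-Krt10 libraries (3.31%) and 187 were higher (2.51%). Without a demand on size, all 3 low-Krt10 libraries lay below all 3 high-Krt10 libraries for 680 genes (9.11%) and above them for 1365 (18.3%). The rule used this contrast, and nothing is read from these shares. They are the shares to set beside each count of a list, family or cluster below. Genes enter the 7465 by the mean over both sides, so 371 of them were under 10 CPM on the low-Krt10 side and 628 on the high-Krt10 side. The median difference of all genes was 0.21 on the log2 scale, and -0.04 with TMM scaling; the share of counted genes that were higher was 43.1%, but 28.3% with TMM scaling, 27.4% with RLE and 30.6% with upper quartile scaling. All 247 lower genes were still counted under each of these scalings, and 118, 115 and 129 of the 187 higher ones. Each scaling moved low-Krt10 values down relative to high-Krt10 values (TMM factors 1.07 to 1.12 against 0.87 to 1.00). The lower genes were thus bound to stay, and nothing is read from this. Without low replicate 3 the counts were 470 lower and 401 higher, and without high replicate 5, 300 were higher. The described lists below kept the sign of their median under all 3 scalings.

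Spinous keratinocyte genes were low or at 0 on the low-Krt10 side. Krt1, the partner with which Krt10 forms filaments (chromosome 15, 101845426 to 101850794, GRCm38), had 0, 2.42 and 6.40 CPM in low-Krt10 libraries, against 6023, 569 and 2342 CPM in high-Krt10 libraries. The sides lay far apart, with a mean log2 difference of -9.41 (SE 1.30). Dsc1, a desmosomal cadherin of the upper layers, had 0, 0 and 4.80 CPM, against 557, 101 and 231 CPM in high-Krt10 libraries. Replicate 3 was the only low-Krt10 library with any Dsc1 counts. Krtdap, a secreted protein of the spinous layer, had 52.1, 94.5 and 403 CPM in low-Krt10 libraries, against 2502, 1134 and 2471 CPM. For Lgals7, a galectin of stratified epithelia, the values were 976, 936 and 2606 CPM in low-Krt10 libraries and 8370, 7738 and 10200 CPM in high-Krt10 libraries. Dsp, the desmosomal plaque protein of all living layers, overlapped between the sides, with a difference of -0.08 (SE 0.38). Of 23 measured genes of the spinous list, 15 were lower and none higher (median difference -3.65, against 0.21 over all genes). Under 10 CPM on the low-Krt10 side were 5 of the 23. Without low replicate 3 the count was 20, and without low replicate 2, 1 gene was higher. In bulk libraries, fewer cells of a type and less RNA per cell cannot be told apart.

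Genes of the cornified envelope were low or at 0 on the low-Krt10 side. Lor, which encodes loricrin, the main envelope protein (chromosome 3, 92080271 to 92083142), had 8.99, 7.27 and 17.6 CPM in low-Krt10 libraries, against 6242, 918 and 2794 CPM in high-Krt10 libraries. Its mean was 11.3 ± 5.53 CPM on the low-Krt10 side and 3318 ± 2701 CPM on the high-Krt10 side (SD, n = 3 each), a log2 difference of -7.77 (SE 0.88). All 3 low values rested on few counts (5, 3 and 55). Rptn, or repetin, an envelope precursor, had 0, 2.42 and 109 CPM, against 2789, 1680 and 1807 CPM in high-Krt10 libraries. Flg2, a filaggrin relative named here after its values were seen, had 0, 0 and 0.320 CPM, against 40.3, 15.5 and 21.0 CPM. These 3 genes lie in the epidermal differentiation complex and moved together in the late libraries. Of 48 measured genes of the cornified list, 35 were lower and none higher (median -5.97); 25 of the 48 were under 10 CPM on the low-Krt10 side, and 27 were at 0 in both low replicates 1 and 2. Without low replicate 3, 45 of 48 were lower.

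Their RefSeq promoters (GRCm38.p6, 250 bases before to 50 after the start) each hold 1 match to the AP-1 motif TGANTCA, searched on both strands and shown in capitals, because these members moved together and AP-1 factors are long known to act at keratinocyte differentiation genes. The windows are chr3:92083093-92083392 on the minus strand for Lor, and chr3:93393449-93393748 and chr3:93197023-93197322 on the plus strand for Rptn and Flg2.
Lor: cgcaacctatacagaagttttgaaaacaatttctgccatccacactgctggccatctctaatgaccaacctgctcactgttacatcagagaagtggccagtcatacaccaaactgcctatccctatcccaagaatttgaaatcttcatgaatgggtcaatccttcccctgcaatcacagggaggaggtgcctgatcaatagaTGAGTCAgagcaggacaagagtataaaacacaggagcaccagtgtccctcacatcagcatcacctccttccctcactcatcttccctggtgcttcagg
Rptn: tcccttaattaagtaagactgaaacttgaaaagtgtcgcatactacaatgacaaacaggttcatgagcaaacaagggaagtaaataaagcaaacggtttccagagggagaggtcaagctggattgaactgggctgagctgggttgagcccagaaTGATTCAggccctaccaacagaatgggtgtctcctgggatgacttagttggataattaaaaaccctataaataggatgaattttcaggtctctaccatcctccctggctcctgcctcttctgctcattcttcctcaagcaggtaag
Flg2: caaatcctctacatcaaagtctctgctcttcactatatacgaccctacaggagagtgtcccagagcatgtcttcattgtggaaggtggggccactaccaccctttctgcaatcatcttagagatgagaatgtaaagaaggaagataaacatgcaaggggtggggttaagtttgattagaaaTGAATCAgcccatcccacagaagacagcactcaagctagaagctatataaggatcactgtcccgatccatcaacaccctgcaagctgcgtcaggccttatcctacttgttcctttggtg
Of the 247 lower genes, 189 had a promoter in the table and 29 of these held the motif (15.3%), against 9 of 155 higher genes (5.81%), 305 of 6021 genes measured in late organoids (5.07%) and 7.91% of all 27025 promoters. The palindromic E-box CACGTG was present in 7.94% of the lower, 10.3% of the higher and 10.6% of the measured genes. These are matches of letters and show no binding.

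The families of the differentiation complex did not behave alike. The late cornified envelope genes Lce1 were at 0 in low replicates 1 and 2 for all 13 measured members, and all 13 were counted as lower. Lce1f, for example, had 0, 0 and 10.9 CPM in low-Krt10 libraries, against 1821, 586 and 820 CPM in high-Krt10 libraries. The Lce3 genes, which are known in human skin as genes of barrier repair and psoriasis, were lower in 6 of 6 cases, with Lce3e at 0, 0 and 59.5 CPM, against 3348, 2658 and 2197 CPM. All 6 were at 0 in low replicates 1 and 2. The small proline-rich Sprr genes, crossbridging envelope proteins raised under stress, differed: 2 of 11 measured members, Sprr1b and Sprr2e, were counted as lower (named after their values were seen), and in 9 of 11 low replicate 3 stood at or above the lowest high-Krt10 library. Sprr2d had 636, 17.0 and 7976 CPM in low-Krt10 libraries and 690, 9295 and 7162 CPM in high-Krt10 libraries, so the sides overlapped. Summed over the 11 Sprr genes, low-Krt10 libraries held 784, 187 and 12130 CPM, against 7908, 19160 and 12770 CPM in high-Krt10 libraries. Lce and Sprr genes are near-identical copies, so counts of single members are uncertain. Asprv1, a protease that processes filaggrin, had 5.39, 4.85 and 570 CPM, against 7729, 5734 and 3404 CPM in high-Krt10 libraries. Ivl, which encodes involucrin and was named after its values were seen, overlapped, with 14.4, 36.4 and 130 CPM in low-Krt10 libraries and 100, 40.2 and 46.7 CPM in high-Krt10 libraries. On the chromosome, 28 of 50 measured genes between the ends of the complex (chromosome 3, 90511034 to 93564643) were lower and 2 were higher. Over all genes, 3.31% were lower and 2.51% higher.

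**Figure D1:**
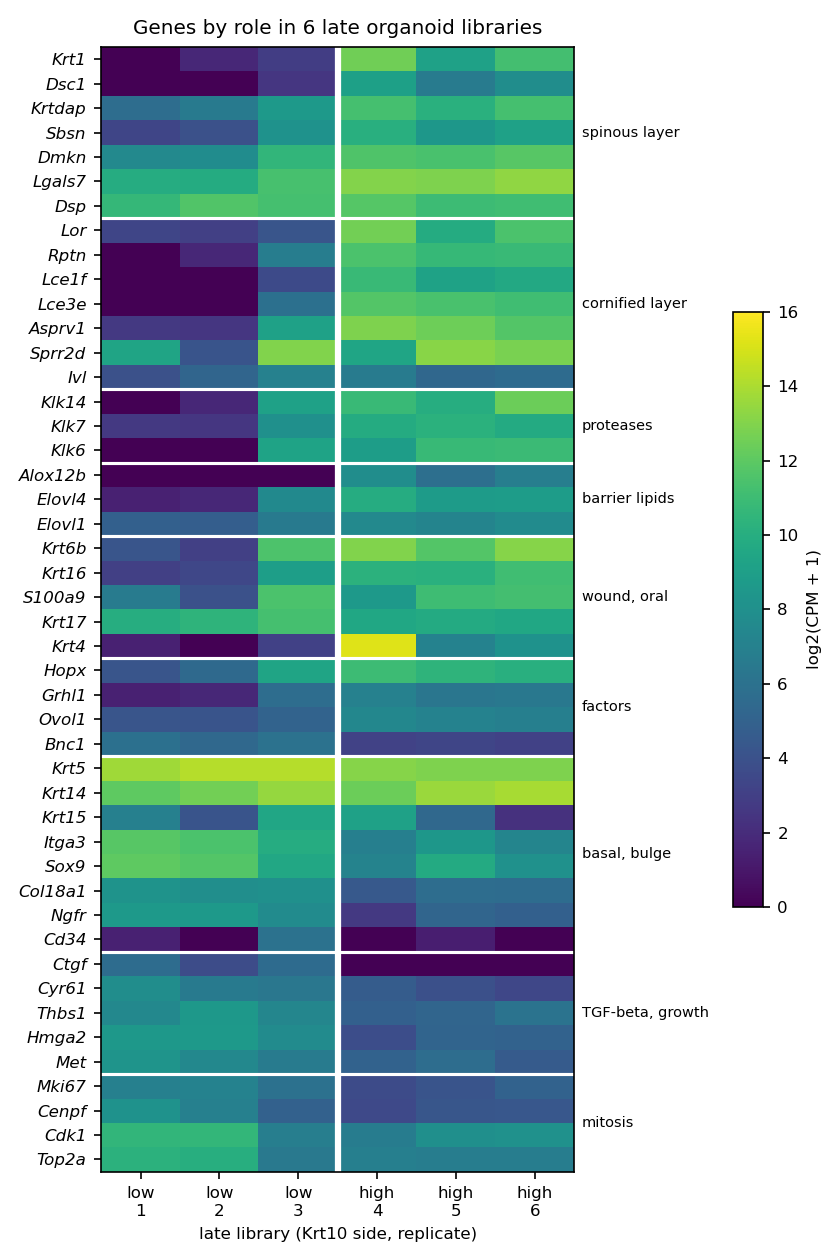
Level of named genes in each late library as log2(CPM + 1), in colour, with the 3 low-Krt10 libraries left of the white line and the 3 high-Krt10 libraries right of it; rows are genes grouped by role. Krt1, Lor and Lce1f are dark in all 3 low-Krt10 libraries, Klk6 and Krt6b are dark in low replicates 1 and 2 but not in 3, and Itga3, Ngfr and Ctgf are brighter on the low-Krt10 side.

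Proteases that shed cornified cells and enzymes that build the lipid seal were also lower. Kallikreins, serine proteases that cut the junctions of cornified cells, were counted as lower in 6 of 9 measured cases. Klk7 had 5.39, 4.85 and 257 CPM in low-Krt10 libraries, against 934, 1174 and 896 CPM in high-Krt10 libraries. Klk14 had 0, 2.42 and 579 CPM, against 1862, 1009 and 5470 CPM. Klk6 was at 0 in low replicates 1 and 2 but at 629 CPM in replicate 3, inside the 487 to 1912 CPM of high-Krt10 libraries, and so was not counted. Of 16 genes of the protease and inhibitor list, 8 were lower and none higher (median -5.33), and 15 of 16 were lower without replicate 3. On the low-Krt10 side, 2 of the 16 were under 10 CPM. Spink5, which encodes the kallikrein inhibitor lost in Netherton syndrome in humans, had 1.80, 21.8 and 336 CPM, against 444, 497 and 606 CPM. Of 17 genes of barrier lipid synthesis, 13 were lower and none higher (median -3.73). On the low-Krt10 side 9 of the 17 were under 10 CPM, and these passed the filter only through their high-Krt10 values. Alox12b, the lipoxygenase that oxidises ceramide precursors, had no count in the 3 low-Krt10 libraries, against 232, 57.3 and 115 CPM in high-Krt10 libraries. Against a floor of 3 counts over the summed low-Krt10 libraries, it was at least 183.9-fold lower, for counting error only. Most of the summed counts came from replicate 3, so this bound does not hold for replicate 1 or 2 alone. Elovl4, which elongates the very long fatty acids of skin ceramides, had 1.80, 2.42 and 195 CPM, against 971, 438 and 455 CPM. Abhd5, an activator of lipid hydrolysis in many cells, differed by -0.97 (SE 0.32) and was not counted.

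Of 21 measured transcription factors of differentiation, 4 were lower and 1 was higher (median -1.20), and without low replicate 3 the counts were 8 and 1. Grhl1, Grhl3, Ovol1 and Bnc1 were named after their values were seen. Hopx, a homeodomain-only protein, had 18.0, 43.6 and 653 CPM in low-Krt10 libraries, against 1983, 1379 and 1087 CPM in high-Krt10 libraries. The grainyhead factors Grhl1 and Grhl3, regulators of barrier genes, differed by -3.57 (SE 1.39) and -3.42 (SE 1.45). Ovol1, a zinc finger factor that restrains proliferation, had 18.0, 17.0 and 32.6 CPM, against 167, 138 and 120 CPM. Bnc1, or basonuclin, a factor of basal keratinocytes, went the other way, with 59.3, 41.2 and 65.6 CPM in low-Krt10 libraries and 7.81, 9.28 and 7.62 CPM in high-Krt10 libraries. Klf4, needed for barrier formation, had 97.0, 136 and 139 CPM, against 639, 291 and 297 CPM; its sides did not overlap, but its difference of -1.63 (SE 0.41) fell short of 4-fold.

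Wound keratins set replicate 3 apart from the other low-Krt10 libraries. Krt6b had 18.0, 7.27 and 2967 CPM in low-Krt10 libraries, against 7977, 3390 and 8654 CPM in high-Krt10 libraries. Krt16 had 7.19, 9.70 and 507 CPM, against 1226, 1154 and 2224 CPM. Both were counted as lower, although replicate 3 came within reach of the high-Krt10 side. The alarmin S100a9 had 101, 14.5 and 2781 CPM in low-Krt10 libraries and 396, 2111 and 2340 CPM in high-Krt10 libraries, so replicate 3 held the highest level of all 6. Krt17, a keratin of follicles and wounds, went the other way at 1012, 1382 and 2457 CPM in low-Krt10 libraries, against 737, 893 and 743 CPM, short of 4-fold. Of 20 genes of the wound list, Krt6b, Krt16 and the defensin gene Defb4, 3 in all, were lower and none was higher (median -0.88; Defb4 named after its values were seen); without replicate 3, 8 were lower (median -1.91), and the median was -0.49 without replicate 4 or without replicate 5. Without replicate 1, 5 or 6, 1 gene was higher, and without replicate 2, 2 were. Krt4, a keratin of oral and oesophageal epithelium, had 1.80, 0 and 7.35 CPM in low-Krt10 libraries, against 38938, 138 and 288 CPM in high-Krt10 libraries. High replicate 4 alone held most of it, and its mean of 13121 ± 22358 CPM (SD, n = 3) describes no typical library. Early organoids ranged from 0 to 101 CPM of Krt4. It was the 1 lower gene of 5 measured oral and simple epithelium keratins (median -2.68), and 3 of the 5 were lower without low replicate 3 (median -4.43). Under 10 CPM on the low-Krt10 side were 2 of the 5. Pitx1, a homeobox gene of oral and hindlimb development, had 153, 417 and 318 CPM, against 613, 746 and 755 CPM.

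Basal keratinocyte genes were present on both sides and mostly above on the low-Krt10 side. Krt5 had 13684, 18755 and 18716 CPM in low-Krt10 libraries, against 8673, 7791 and 7590 CPM in high-Krt10 libraries. The sides did not overlap, but the difference of 1.08 (SE 0.16) was short of 4-fold, and Krt5 lay at 10386 to 19976 CPM in early organoids. Krt14 overlapped, with 4153, 6215 and 11275 CPM in low-Krt10 libraries and 5486, 12564 and 15332 CPM in high-Krt10 libraries. Itga3, the laminin-binding integrin subunit (chromosome 11, 95044474 to 95076801), had 3684, 2889 and 976 CPM, against 120, 356 and 153 CPM. Its mean was 2517 ± 1392 CPM on the low-Krt10 side and 210 ± 128 CPM on the high-Krt10 side (SD, n = 3 each; log2 difference 3.54, SE 0.76). Low replicates 1, 2 and 3 all exceeded the 113 to 722 CPM of early organoids. Plec, the plectin that links keratins to hemidesmosomes, was counted too, but not under the other scalings (difference 2.05, SE 0.36). These were the only counted genes among 22 of the basal list (median 1.26), of which 14 lay above in all 3 low-Krt10 libraries, against 18.3% of all genes. The count was 4 without replicate 3, 5 without replicate 5, 4 without replicate 6 and 1 under each of the other scalings. Itga6, a hemidesmosomal integrin, had 273, 419 and 140 CPM, against 91.1, 66.5 and 92.4 CPM. Ly6a, which encodes Sca1, had 953, 887 and 1025 CPM, against 93.7, 520 and 429 CPM.

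Genes linked to follicle stem cells and growth were higher in part, while the bulge markers Cd34, Krt15 and Lgr5 were not counted. Sox9, a factor of the outer root sheath and bulge, had 4204, 3405 and 776 CPM in low-Krt10 libraries and 139, 885 and 272 CPM in high-Krt10 libraries, and overlapped through replicates 3 and 5. Col18a1, a basement membrane collagen, had 298, 235 and 258 CPM, against 20.8, 51.1 and 50.5 CPM. Of 8 measured bulge genes, 2 were higher, Col18a1 and Ctgf, and none was lower (median 2.00). On the high-Krt10 side, 2 of the 8 were under 10 CPM. Ctgf is described again below with genes that respond to TGF-beta and to YAP. Without replicate 3, 4 of the bulge genes were higher. Cd34, a bulge marker, was near 0 in 5 of the 6 libraries: 1.80, 0 and 64.9 CPM in low-Krt10 libraries, against 0, 1.55 and 0 CPM. Only replicate 3 held it, and a difference between the sides cannot be read from it. Krt15 overlapped, and Lgr5 had no count in any late library. Ngfr, the low-affinity neurotrophin receptor (chromosome 11, 95568818 to 95587735), had 404, 383 and 209 CPM in low-Krt10 libraries, against 5.21, 35.6 and 28.6 CPM in high-Krt10 libraries (log2 difference 4.08, SE 0.86). Sorted epidermis held 63.9 to 77.1 CPM of Ngfr and early organoids 0.781 to 13.95 CPM, so the low-Krt10 libraries were above both. Hmga2, a chromatin protein of growing and embryonic tissue, had 374, 410 and 212 CPM, against 13.0, 34.0 and 32.4 CPM. Met, the receptor of hepatocyte growth factor, had 306, 179 and 99.8 CPM, against 31.2, 52.6 and 22.9 CPM.

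Matrix and integrin genes that respond to TGF-beta and to YAP were among the higher genes. Ctgf, a matricellular protein, had 50.3, 12.1 and 47.0 CPM in low-Krt10 libraries (28, 5 and 147 counts) and none in the 3 high-Krt10 libraries, at least 29.97-fold higher against a floor of 3 counts over the summed high-Krt10 libraries. Early organoids had at most 1.64 CPM of Ctgf. Cyr61, its close relative, had 226, 97.0 and 78.7 CPM, against 24.7, 13.9 and 9.52 CPM in high-Krt10 libraries. Thbs1, a thrombospondin that activates latent TGF-beta, had 173, 376 and 160 CPM, against 28.6, 35.6 and 66.7 CPM. Itgav, an integrin subunit, differed by 2.44 (SE 0.53). Id1, an inhibitor of DNA binding driven by BMP signals, was the 1 lower gene of this list, with 153, 36.4 and 106 CPM, against 161, 757 and 336 CPM. In all, 4 of 12 measured TGF-beta targets were higher and 1 was lower (median 1.28). Under 10 CPM on the high-Krt10 side were 2 of the 12. The median was 0.37 without replicate 4 and 2.21 without replicate 5, none was lower without replicate 2 or without replicate 5, and 6 were higher without replicate 3. Summed over the list, low-Krt10 libraries held 1247 to 1283 CPM and high-Krt10 libraries 437 to 1441 CPM, so the sums overlapped. Both sides grew in the same medium, which per the labels held no TGF-beta inhibitor.

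YAP acts on DNA through TEAD factors, and the RefSeq promoter of Cyr61 (listed there as Ccn1; chr3:145649936-145650235, minus strand, GRCm38.p6) holds 1 match to the TEAD core GGAATG, here read from the opposite strand and shown in capitals.
Cyr61: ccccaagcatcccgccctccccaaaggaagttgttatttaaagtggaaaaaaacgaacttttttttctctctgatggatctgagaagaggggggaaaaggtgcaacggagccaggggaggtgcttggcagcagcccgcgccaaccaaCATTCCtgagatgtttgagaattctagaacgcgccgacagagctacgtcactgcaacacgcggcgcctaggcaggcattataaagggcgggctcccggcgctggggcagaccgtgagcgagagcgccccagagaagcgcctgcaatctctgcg
The core was found in 11.6% of the 155 higher genes with a promoter, 15.3% of the 189 lower ones, 11.2% of the measured genes and 14.6% of all promoters, so it was no more frequent among higher than among lower genes.

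Mitotic genes stood apart in low replicates 1 and 2. Mki67, a marker of cycling cells, had 122, 138 and 62.7 CPM in low-Krt10 libraries, against 11.7, 17.0 and 31.4 CPM in high-Krt10 libraries. Cdk1, the mitotic kinase, had 1486, 1571 and 116 CPM, against 104, 251 and 270 CPM, so that replicate 3 lay inside the high-Krt10 range. Top2a, a topoisomerase of dividing cells, had 1265, 1033 and 86.7 CPM, against 117, 107 and 107 CPM. Of 25 mitotic genes, 6 were higher and none lower (median 1.67): Mki67 and, named after their values were seen, Cenpe, Cenpf, Nusap1, Hmmr and Bub1b. The count was 17 without replicate 3, 3 without replicate 1 and 4 without replicate 4, and with TMM, RLE or upper quartile scaling it was 5. None of 18 DNA replication genes was counted, although 10 lay above in all 3 low-Krt10 libraries, against 18.3% of all genes (median 0.92). Among the 10 was Rrm2 at 228, 223 and 150 CPM, against 121, 63.4 and 77.1 CPM. Without replicate 3, and likewise without replicate 4, 2 replication genes were counted as higher. Of 11 ERK feedback genes, Etv5, named after its values were seen, was the 1 counted gene and was higher (median 1.22), against 2.51% of all genes. The count was 3 without replicate 3, 2 without replicate 5 and 0 without replicate 4. The median was 0.54 without replicate 4 and 0.72 without replicate 2.

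Other groups differed little in count. Of 8 mesenchymal and migration genes 1 was higher, against 2.51% of all genes (list median 1.74). It was S100a4, with 300, 216 and 166 CPM in low-Krt10 libraries, against 7.81, 88.2 and 27.6 CPM in high-Krt10 libraries. The count was 2 or 3 with any 1 library left out. Of 24 cholesterol synthesis genes 2 were lower, Mvk and Tm7sf2, and none higher (median -1.07; both named after their values were seen). The count was 1 without replicate 1, 0 without replicate 2, 5 without replicate 3, 3 without replicate 5 or 6, 3 with TMM and 4 with RLE or upper quartile scaling. Cyp51 had 95.3, 107 and 214 CPM, against 351, 320 and 366 CPM. Among the largest differences were also genes of no list. Ovgp1, an oviduct glycoprotein gene, had 291, 216 and 0.959 CPM in low-Krt10 libraries and no count in high-Krt10 libraries, at least 139.1-fold higher, and its level rested on replicates 1 and 2. Serpinb6b, a serine protease inhibitor, had 25.2, 7.27 and 31.7 CPM and no count on the high-Krt10 side, at least 17.55-fold higher. Cmah, which hydroxylates sialic acid, had 117, 70.3 and 23.0 CPM, against 2.60, 3.09 and 5.71 CPM. Of the 100 genes that varied most over the 6 late libraries, 70 were counted as lower and 2 as higher. Krt10 is among the 70, and the shares over all genes were 3.31% and 2.51%. Both the ranking and the counts rest on the same values, so nothing is read from this.

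**Figure D2:**
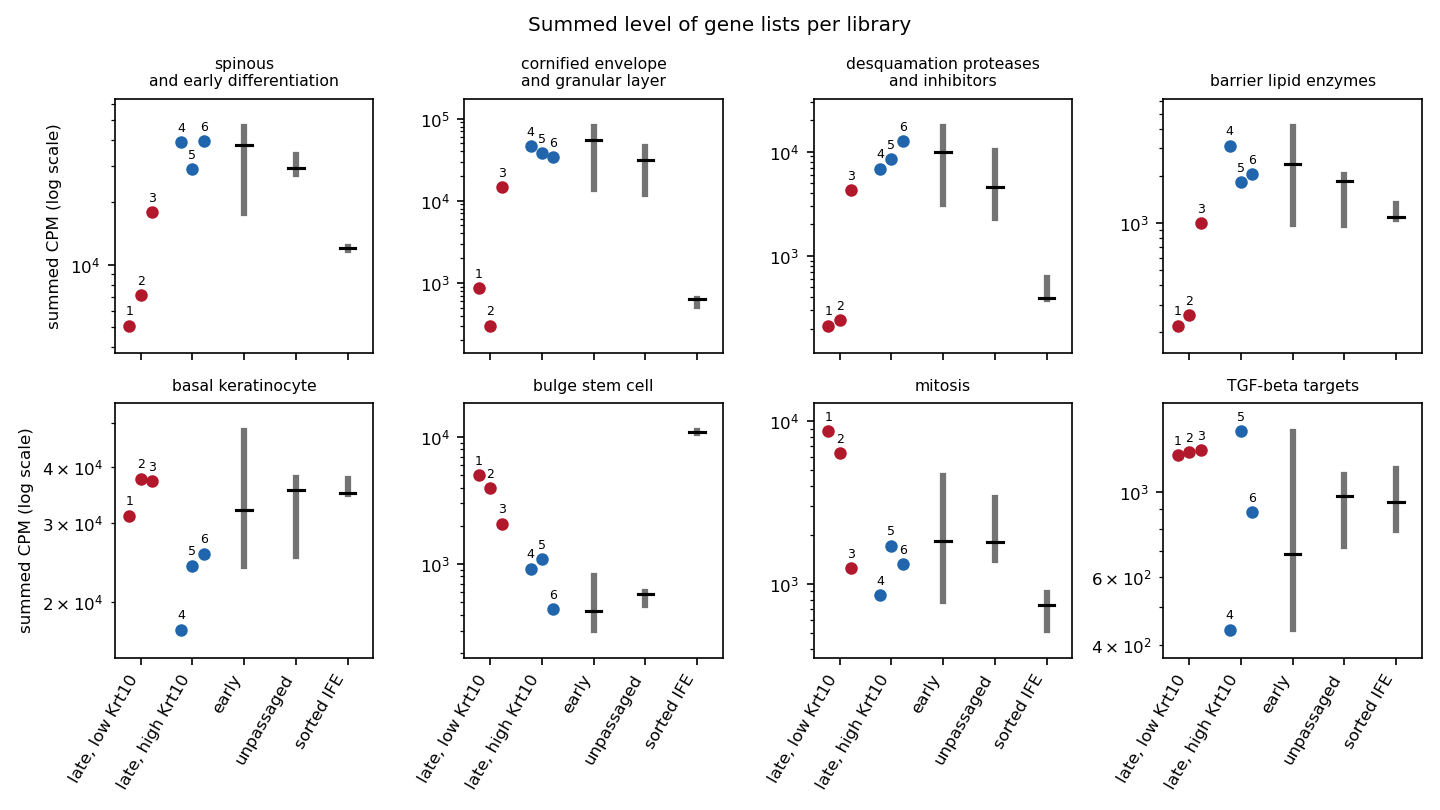
Summed CPM of 8 gene lists (log axes), with each late library as a numbered point, low-Krt10 in red and high-Krt10 in blue; bars span the lowest to highest library of 12 early and 5 unpassaged organoid libraries and 3 of sorted interfollicular epidermis (IFE), with a line at the median. Low replicates 1 and 2 lie below the early range in all 4 differentiation panels and above it for mitosis, and replicate 3 lies near the low end of the early range for the cornified list.

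Levels in the rest of the series give the scale of these gaps. The cornified list summed to 863, 303 and 14523 CPM in low-Krt10 libraries and to 34039 to 46166 CPM in high-Krt10 libraries, while 12 early libraries ranged from 13761 to 79522 CPM. Sorted epidermis, which was selected for basal cell surface proteins, held 517 to 642 CPM. Lor ranged from 341 to 11912 CPM in early organoids and from 161 to 1809 CPM in unpassaged organoids, so all 3 low-Krt10 libraries lay below every other organoid library. Bulge genes summed to 2081 to 4982 CPM in low-Krt10 libraries, 444 to 1091 CPM in high-Krt10 libraries and 305 to 808 CPM in early organoids, against 10678 to 11140 CPM in sorted epidermis. In sorted epidermis Krt15 alone stood at 9577 to 10540 CPM, and in low replicate 1 Sox9 alone stood at 4204 CPM. Different genes thus carried these sums, which show no shared bulge pattern. Krt15 and Sox9 both overlapped between the late sides. These ranges are descriptions, and early libraries differed in medium and source table.

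Markers of other cell types were at or near 0. T cell markers (Cd3e, Cd3g) and hair keratins (Krt25, Krt71, Krt35) had no count in any late library. Markers of Langerhans cells, melanocytes, endothelium, Merkel cells and red blood cells summed to at most 4.48 CPM on the low-Krt10 side and 2.60 CPM on the high-Krt10 side. The 5 fibroblast markers summed to 0 to 18.0 CPM in low-Krt10 libraries and 0 to 470 CPM in high-Krt10 libraries, where Dcn, a matrix proteoglycan, accounted for 458 CPM in replicate 4. A longer list of 13 fibroblast genes summed to 676 to 1134 CPM on the low-Krt10 side and 210 to 819 CPM on the high-Krt10 side, and Sparc, a matrix glycoprotein, stood at 751, 647 and 1116 CPM in low-Krt10 libraries, against 320, 350 and 202 CPM. The part of these transcripts in the results was not tested. Basal keratinocyte markers (Krt5, Krt14, Itga6 and Col17a1) summed to 19370 to 30638 CPM on the low-Krt10 side and 15137 to 23562 CPM on the high-Krt10 side.

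The late pattern was then sought in libraries that did not set the sides. Across 12 early organoid libraries, each gene was tested for a slope on Krt10, that is the change in its log2 level per doubling of Krt10, with medium as a term (edgeR's quasi-likelihood test, Benjamini-Hochberg adjustment over 9183 genes). In all 105 genes rose with Krt10 (1.14%) and 13 fell (0.142%). This result rested on 1 library. In early organoids with forskolin and the inhibitor, Krt10 was at 320, 412, 187 and 6041 CPM in replicates 1 to 4, and without replicate 4 no gene passed in edgeR (459 rising and 367 falling at an unadjusted p under 0.05), while 9 and 4 passed in DESeq2. Without replicate 3 of that group, 32 rose and 1 fell. Without replicate 4 but also without the medium term, 272 rose and 176 fell, a fit in which medium and Krt10 cannot be told apart.

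Among the lists, the cornified one held the most genes that rose with Krt10 in early organoids. Lce1d had the smallest adjusted p, with a slope of 0.85 (SE 0.08, adjusted p = 0.000109 by edgeR). Lor ranged from 341 to 403 CPM in replicates 1 to 3 with forskolin and the inhibitor and stood at 6119 CPM in replicate 4; over all 12 libraries its slope was 0.80 (SE 0.10, adjusted p = 0.000788). Without replicate 4 the slope of Lor was 0.34 and no longer passed (adjusted p = 0.601). Krt1 had a slope of 0.85 (adjusted p = 0.000788), and 0.35 without that library. Flg2 had a slope of 0.77 with that library (adjusted p = 0.000269) and without it, where it no longer passed. Dsc1, with 0.69 (adjusted p = 0.000269), Kprp, an envelope protein, with 0.68 (adjusted p = 0.000156), and the interleukin-36 receptor antagonist gene Il1f5, with 0.77 (adjusted p = 0.000156), also rose. Of 50 tested cornified genes 22 rose and none fell (median slope 0.40), against 4 of 24 spinous, 2 of 17 protease and 4 of 22 lipid genes, and none of 22 transcription factors.

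The families again differed. Of 14 tested Lce1 genes 13 rose, with slopes of 0.71 to 0.92 over the 14, while none of 6 Lce3 genes (0.14 to 0.40) and none of 11 Sprr genes (median -0.12) passed. Among genes with large late differences, Krt6b (slope 0.06, SE 0.13, adjusted p = 0.934), Krt16 (0.01, SE 0.10, adjusted p = 0.986) and Krt4 (0.06, SE 0.21, adjusted p = 0.963) did not pass in early organoids, although their late sides did not overlap. A p that misses the threshold does not show that they do not vary with Krt10. Ivl rose with a slope of 0.39 (adjusted p = 0.00840), though it overlapped between the late sides.

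Few genes fell with Krt10 in early organoids. Met had the smallest adjusted p, with a slope of -0.41 (SE 0.07, adjusted p = 0.00459), and -0.42 without replicate 4 of forskolin plus inhibitor, where it no longer passed. In the early libraries Met was at 162, 84.3 and 168 CPM in replicates 1 to 3 with forskolin and the inhibitor, and at 35.8 CPM in replicate 4. St3gal1, a sialyltransferase, fell with -0.43 (adjusted p = 0.00908) and Anxa11, an annexin, with -0.38 (adjusted p = 0.00840). Met and St3gal1 were also counted as higher in low-Krt10 late libraries. Itga3 had a slope of -0.39 (SE 0.10, adjusted p = 0.0868), Ngfr -0.08 (adjusted p = 0.922) and Mki67 -0.25 (adjusted p = 0.556), and none of these passed. None of 23 basal, 25 mitotic or 24 DNA replication genes passed. All 25 mitotic and all 24 replication slopes were below 0, while over all genes 4514 of 9183 slopes were above 0. The sign was not particular to these lists, since of 25 glycolysis and hypoxia slopes 1 was above 0. Genes of a list can move together, so nothing is read from these signs.

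**Figure D3:**
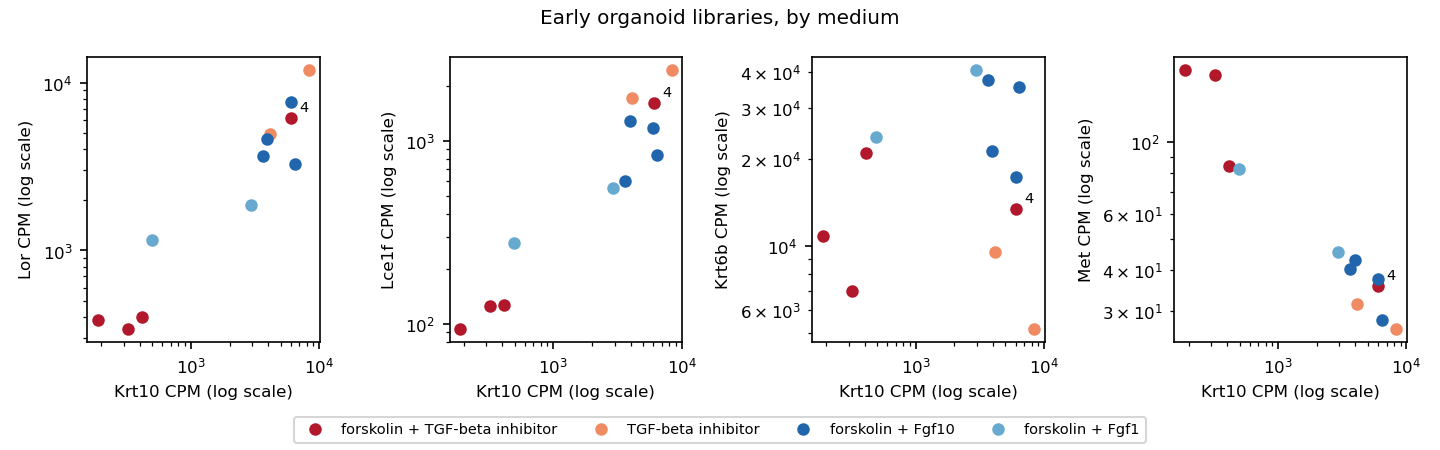
Lor, Lce1f, Krt6b and Met against Krt10 in 12 early organoid libraries, both in CPM on log axes, coloured by medium, with replicate 4 of forskolin plus inhibitor marked 4. Lor and Lce1f are high and Met is low where Krt10 is high, and within the red points this rests on replicate 4, while Krt6b shows no such order.

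Set side by side, the late differences and the early slopes shared many genes. Of the 247 genes lower in low-Krt10 late libraries, 57 rose with Krt10 in early organoids (23.1%, against 1.14% of 7292 genes measured in both), none fell, and 228 had a slope above 0 (92.3%, against 47.5%). Without replicate 4 of early organoids with forskolin and the inhibitor, 204 of 246 lower genes had a slope above 0 (82.9%, against 49.6% of all genes), with a median slope of 0.22. Of the 187 higher genes 158 could be tested; 2 fell (1.27%, against 0.151%), none rose, and 128 had a slope below 0 (81.0%, against 52.5%), or 64.8% of 159 genes without that library. Read from the other list, 83 of the 105 rising genes were measured in late organoids. Of these, 57 were lower (68.7%, against 3.31% of all genes) and none higher, with a median late difference of -3.92 (0.21 over all genes). Of 11 measured falling genes, 2 were higher (18.2%, against 2.51%) and all 11 had a late difference above 0. Without replicate 4 of forskolin plus inhibitor no gene passed in edgeR, so this reading rests on that library. Early and late libraries share no sample.

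**Figure D4:**
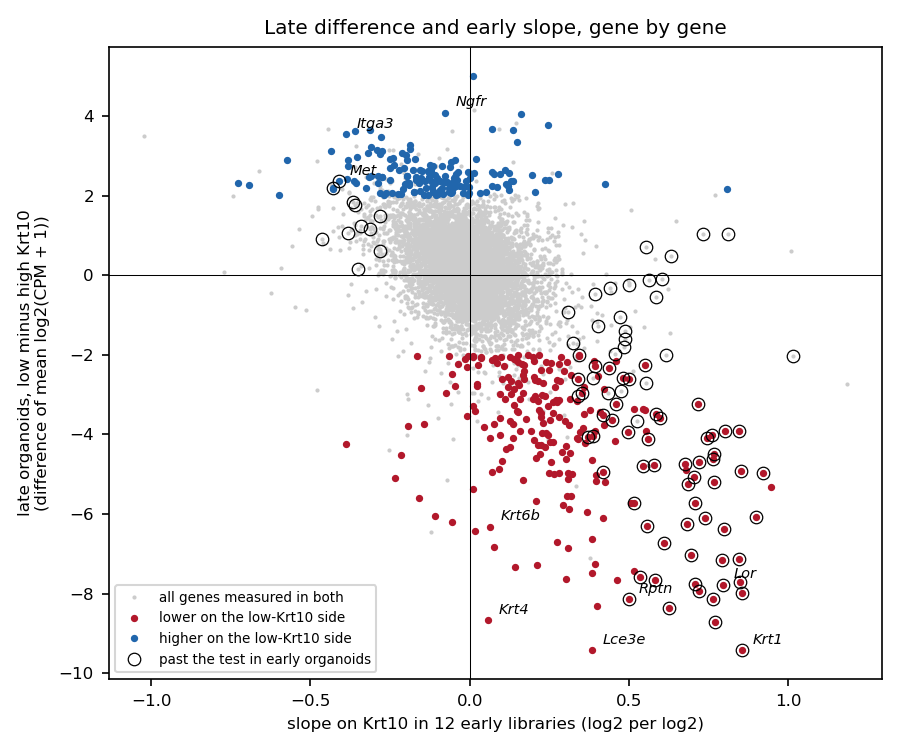
Each point is a gene measured in both sets: on the x axis its slope on Krt10 in 12 early libraries, on the y axis the late difference, low minus high Krt10, in mean log2(CPM + 1). Red and blue points were counted as lower and higher on the low-Krt10 side and circles passed the test in early organoids; most circled genes lie at the lower right, with Krt1 and Lor among them, the few that fell lie above 0 at the left, and red genes near a slope of 0 include Krt6b and Krt4.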

How the data were processed

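Per the labels' protocols, cells were collected into Trizol by sorting and their total RNA went into CEL-seq2 libraries; the titles call the organoid samples bulk cells. The submitters' processing notes name BWA 0.6.2-r126 and the build mm10. Which program counted the reads, and whether molecular identifiers were collapsed, is not given in the sources used here. Submitted with each library was 1 table of deposited counts, with whole-number counts per gene symbol. A gene not listed was taken as 0, and spike-in rows were left out. CPM are counts scaled to a library total of 1000000. Coordinates are those of GENCODE M21 (GRCm38), found for 138 of 141 named genes.

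Late libraries were described with a pseudocount of 1 and no test. The early fit used edgeR 4.0.16 in R 4.3.3 (limma 3.58.1): TMM, filterByExpr (minimum count 10, total 15), Krt10 left out as a gene, Benjamini-Hochberg at 0.05; DESeq2 1.42.0 was an alternative. Tested on simulated data (8907 genes), the early test called 68% of genes with a slope of 0.5, 12.2% with 0.25, and 5 unchanged genes. Intervals and floors cover counting error only.

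The members and the 35 lists (634 genes, 15 described) were chosen with earlier results of these data known. Named genes were the 12 largest differences each way, up to 6 highest members per described list, Krt5, Krt14, Krt1, Krt10, Lor, Itga6, Ly6a, Mki67, Cd34, Lgr5 and Krt15, and the 8 smallest adjusted p each way in the early fit. Genes added after their values were seen were Krtdap, Sbsn, Flg2, Ivl, Sprr1b, Sprr2e, Defb4, Mvk, Tm7sf2, Grhl1, Grhl3, Ovol1, Bnc1, Plec, Lce3a, Dcn, Etv5, Xist, Eif2s3y, Jun, Fos, Fosb, Nr4a1, Ier2, Klf6, Atf3, Hmox1, Prdx1 and the 5 mitotic genes named as such. Predicted genes and pseudogenes were left out of the first kind. A result for 1 of these genes is not reported here.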

Additional observations from a re-analysis of the deposited data

Results flagged for a closer look

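In 161 checks of single genes within groups of 4 or 6 libraries, 9 had 1 library far from the rest, and chance flags about 1 in 20. In early organoids with forskolin and the TGF-beta inhibitor, replicate 4 stood above the other 3 for Krt1 (5115 CPM, next highest 333) and Lor (6119 CPM, next highest 403). Among the late libraries, high replicate 4 stood apart most often. It was high for Dcn (458 CPM, next highest 7.19) and Krt13 (62.5 CPM, next highest 1.60). It was low for Bhlhe40 (83.3 CPM, next lowest 189), Ly6a (93.7 CPM, next lowest 429) and Il24 (0 CPM, next lowest 6.19). Low replicate 3 stood above the rest for Cd34 (64.9 CPM, next highest 1.80) and Muc4 (20.5 CPM, next highest 1.80).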

How the results depend on the processing

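Of the counts of late genes (247 lower, 187 higher), lower genes numbered 128 with a minimum mean of 50 CPM and 452 with a log2 difference of at least 1, and 224 to 470 with 1 library left out. Higher genes numbered 118 with TMM, 115 with RLE, 320 with a minimum of 2 CPM, 71 with a minimum of 50 CPM, 91 with a pseudocount of 5, 880 with a log2 difference of at least 1, and 148 to 401 with 1 library left out. Of 66 counted named genes none changed sign in 12 settings each, but genes counted for a 4-fold gap without overlap could hardly do so. Nothing is read from this. In early organoids (105 rising, 13 falling) the counts were 158 and 41 with DESeq2, 254 and 61 with no filter, 311 and 194 without the medium term, 161 and 27 with a source table term, and 166 and 58 with the unpassaged libraries added. With 1 library left out they were 0 to 130 and 0 to 16. Chosen after seeing the data, leaving out replicate 4 of forskolin plus inhibitor gave 9 and 4 with DESeq2, and 272 and 176 without the medium term. With a replicate block 40 rose and 2 fell, 33 and 0 of them also called without it. Same-numbered libraries correlated at -0.18 to 0.38 over 14 pairs, 2 of them over 0.1. In groups of 2 libraries the deviations from the group mean mirror each other, so these correlations cannot show whether the numbers pair the samples. Changes in the slopes of named genes were 75 newly past the threshold and 74 no longer past it, against 2752 that stayed on their side, and no called value changed sign. The shallowest late library held 412582 counts, which limits genes of low level most. Filters and size thresholds change how many genes can be counted; the causes of the other shifts were not tested.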

Other observations

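Immediate early genes, which respond within minutes to growth factors, stress or the dissociation of tissue, set low replicates 1 and 2 apart from the other 4 late libraries. Jun had 7414, 4663 and 479 CPM in low-Krt10 libraries, against 484, 1413 and 560 CPM in high-Krt10 libraries. Fos had 428, 492 and 7.35 CPM, against 3.90, 13.9 and 10.5 CPM in high-Krt10 libraries, and Fosb 108, 201 and 1.28 CPM, against 2.60, 1.55 and 2.86 CPM. Nr4a1, a nuclear receptor induced by cyclic AMP, had 84.5, 104 and 1.60 CPM, against 10.4, 3.09 and 1.90 CPM. All genes in these paragraphs other than Cdk1 and Top2a were named after their values were seen. These 4 overlapped between the sides through replicate 3. Ier2 and Klf6, of the same list of 15 measured genes, differed by -0.07 and -0.19 on the log2 scale, and only Atf3 of that list was counted, as higher. Low replicates 1 and 2 were also the libraries with the most Cdk1 and Top2a, and they share a source table; the part of these values in the results was not tested.

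Antioxidant genes of the NRF2 list gave 3 lower and no higher genes of 17 measured, with a median difference of -0.61. Hmox1, which encodes heme oxygenase, had 16.2, 26.7 and 38.4 CPM in low-Krt10 libraries, against 125, 152 and 148 CPM in high-Krt10 libraries. Prdx1, a peroxiredoxin of the same list, lay the other way at 1407, 936 and 1625 CPM, against 796, 791 and 743 CPM. No gene was counted among 25 glycolysis and hypoxia genes, 29 ribosomal protein genes, 13 p53 targets or 8 interferon genes. The ribosomal protein genes had a median difference of -0.54, and their sum was 79620, 88620 and 59880 CPM in low-Krt10 libraries, against 94050, 96360 and 87760 CPM in high-Krt10 libraries.

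By position, genes counted as lower also lay in the kallikrein cluster (6 of 9 measured genes, chromosome 7, 43690418 to 44229618), the Serpinb cluster (4 of 8, with 1 higher, chromosome 1, 106861173 to 107610484) and the type II keratin cluster (4 of 7, chromosome 15, 101347444 to 102032027). In the type I keratin cluster on chromosome 11, 1 of 7 was lower. The shares over all genes were 3.31% lower and 2.51% higher.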
